A study of Homo sapiens with 9 samples.

Results

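The genes described here are the nuclear-encoded genes of oxidative phosphorylation (OXPHOS) in OVCAR3 cells. They were taken from the raw count matrix by symbol, as protein-coding nuclear genes of the NDUFA, NDUFB, NDUFC, NDUFS and NDUFV series, *NDUFAB1*, *SDHA* to *SDHD*, the UQCR genes without *UQCRFS1*, the COX genes with a number, *CYC1*, *CYCS* and the ATP5F, ATP5M and ATP5P genes. This rule gave 99 of the 60660 rows of the matrix. OVCAR3 is an established line of human epithelial ovarian cancer, and *CTCFL*, also called BORIS, is the paralog of the insulator protein gene *CTCF*. The 9 RNA-seq libraries came in 3 groups of 3, Control, CTCFL-OE and CTCFL-KD, and each biological replicate pooled 3 technical replicates. By the methods of the study, Control cells had received 2 µg of a LacZ plasmid and CTCFL-OE cells 2 µg of a plasmid with the *CTCFL* open reading frame, both by transient transfection with Xfect, and were harvested after 48 h. CTCFL-KD cells had been treated with siRNAs in knockdown work that preceded the study. No control of that earlier work was analysed here, so CTCFL-KD and CTCFL-OE were both compared with the same 3 plasmid-transfected Control libraries, and the knockdown cannot be told apart from the separate handling of the CTCFL-KD cells.

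In OXPHOS, complexes I and II take electrons from NADH and succinate, complex III passes them to cytochrome c, and complex IV hands them to oxygen, while complexes I, III and IV pump protons across the inner mitochondrial membrane. Complex V, the ATP synthase, lets the protons flow back through its membrane part and makes ATP in its F1 head. Most subunits are encoded in the nucleus, made in the cytosol and imported, and a few central ones are encoded by the mitochondrial genome.

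The libraries held between 14332622 and 24490080 counts, and *CTCFL* had 6, 9 and 10 counts in Control. It had 36, 34 and 72 counts in CTCFL-OE, and CTCFL-KD had 0, 1 and 0. *CTCFL* was thus higher in CTCFL-OE (log2 fold change 2.73, adjusted p = 0.0287) and lower in CTCFL-KD (adjusted p = 0.0162), with every library on its labelled side of Control. All 10 epithelial and serous ovarian markers lay above 1 CPM in every library, where CPM is the count per 1e6 of the TMM-scaled library size. Their sum was 5949 to 6073 CPM in Control and 9929 to 16885 CPM in CTCFL-KD, where 7 of them rose, led by *MUC16* (log2 fold change 2.84), and *KRT7* (-1.12) and *WT1* (-0.63) fell. Of 7 fibroblast markers, summed between 23.9 and 43.6 CPM over the 9 libraries, only *COL1A1* lay above 1 CPM in every library. *COL1A2* had 156, 239 and 247 counts in CTCFL-KD and none in Control, and *COL3A1* had 8, 9 and 8 against none. The 4 leukocyte markers summed to 0.200 to 0.456 CPM in Control and 1.61 to 3.34 CPM in CTCFL-KD, where *CD14* rose from 4, 2 and 2 to 34, 22 and 25 counts (adjusted p = 0.000571) and *PTPRC* had at most 8 counts. The 3 endothelial markers summed to 6.79 to 7.06 CPM in Control and 4.49 to 5.29 CPM in CTCFL-KD, where *PECAM1* fell from 37, 45 and 36 to 3, 4 and 7 counts (adjusted p = 0.000511). The part of these genes in the results was not tested. One library stood apart. CTCFL-KD replicate 1 had a TMM factor of 0.775, against 0.945 to 1.09 in the other 8 libraries, and the 99 genes took 1.80% of its counts, against 0.911% and 0.935% in the other CTCFL-KD libraries, 0.863% to 0.891% in Control and 0.717% to 0.961% in CTCFL-OE. Main counts of CTCFL-KD are therefore given with and without it. RNA of a whole culture was measured, so fewer cells of one kind and less RNA per cell cannot be told apart.

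Of the 99 genes, 90 passed the filter on low counts and were tested. The 9 others were *NDUFA7*, *COX4I2*, *COX6A2*, *COX6B2*, *COX7A1*, *COX8C*, *ATP5MGL* and the readthrough genes *ATP5MF-PTCD1* and *NDUFC2-KCTD14*, none with more than 10 counts in any library. *COX4I2*, *COX6A2*, *COX7A1* and *COX8C* are isoforms of complex IV subunits used mainly in particular tissues such as lung, muscle or testis. *NDUFA7*, an accessory subunit of complex I, had 6, 10 and 9 counts in Control and between 1 and 8 in the other libraries. Exons of other genes on the same strand covered 32.5% of its exon bases, and how the authors counted reads on overlapping genes is not given in the sources used here.

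Levels between genes were compared as CPM per kilobase of the canonical transcript. In Control the highest was *ATP5F1B*, the catalytic beta subunit of ATP synthase, at 444 ± 9.67 CPM per kilobase (SD, n = 3). *COX7C* followed at 351 ± 9.02, *COX4I1* at 328 ± 13.0, *NDUFS5* at 301 ± 5.20 and *COX7A2* at 294 ± 6.89, and the last pair differed by about their spread. The lowest of the tested genes was *NDUFV2*, a core subunit that carries an iron-sulfur cluster, at 1.10 CPM per kilobase, with 28.4% of its exon bases shared with another gene on the same strand. *NDUFA4L2*, a copy of *NDUFA4* known from hypoxic cells, lay at 1.36. For 10 tested genes, among them *NDUFS1*, *ATP5F1A*, *UQCRC2* and *CYCS*, the canonical transcript was more than 3 times as long as the median protein-coding transcript, so their levels per length are uncertain.

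**Figure D1:**
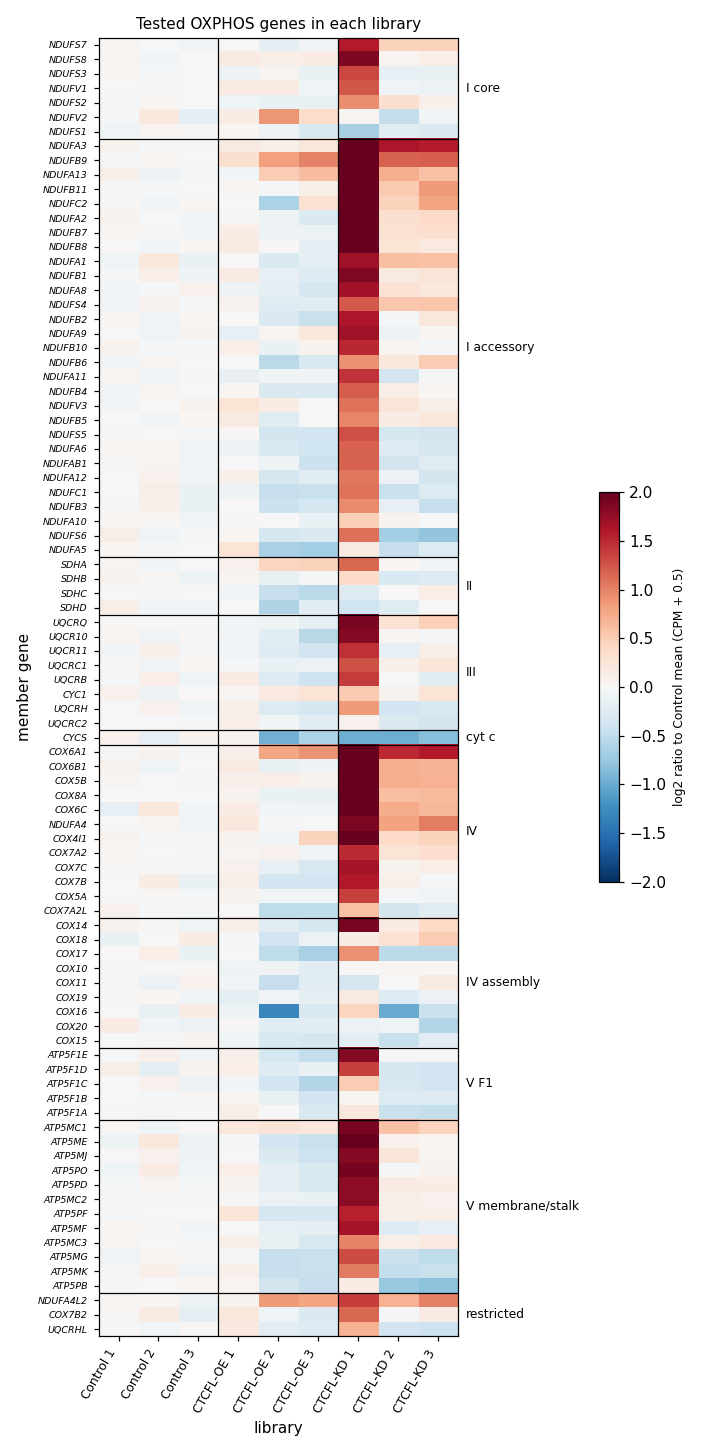
Heat map of the 90 tested genes (rows, grouped by complex and ordered by fold change in CTCFL-KD) in the 9 libraries (columns); colour is the log2 ratio of CPM + 0.5 to the mean of the Control libraries and saturates at 2 in either direction. The column of CTCFL-KD replicate 1 is the darkest, with a median ratio of 1.32 over the 90 genes, against 0.04 in both other CTCFL-KD libraries.

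In CTCFL-OE, no OXPHOS gene was called higher or lower than in Control at an adjusted p under 0.1. Of all 17794 genes tested, 3.15% were called, 1.99% higher and 1.16% lower. The median log2 fold change of the 90 genes was -0.12, against -0.01 over all genes. It was -0.23 without CTCFL-OE replicate 1, -0.06 without CTCFL-OE replicate 3 and 0.00496 with an offset for transcript length and GC content. An unadjusted p under 0.05 was found for 1 of the 90 genes and for 3157 of all genes. DESeq2 also called none. In 8 genes (8.89%) every CTCFL-OE library lay above every Control library, and in 9 genes (10%) every one lay below, where the shares over all genes were 16.3% and 20.8%.

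The groups of subunits stayed close together in CTCFL-OE. Median log2 fold changes were -0.06 for the 7 core and -0.12 for the 29 tested accessory subunits of complex I, -0.15 for complex II, -0.13 for complex III, -0.01 for complex IV, -0.17 for its assembly factors, -0.15 for F1 and -0.13 for the membrane part and stalk of ATP synthase. CTCFL-OE replicate 1 was the highest of its group for 71 of the 90 genes. The single genes farthest from 0 were *NDUFA4L2* (log2 fold change 0.78, adjusted p = 0.238), *NDUFB9* (0.74, adjusted p = 0.409), *NDUFV2* (0.68, adjusted p = 0.324) and *COX6A1* (0.63, adjusted p = 0.473). *NDUFB9*, an accessory subunit of complex I, had 142, 148 and 143 CPM in Control and 180, 257 and 288 CPM in CTCFL-OE. The groups did not overlap, and the first CTCFL-OE library lay nearest to Control.

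*COX6A1*, a small subunit of complex IV, showed the same order of libraries, with 99.0, 107 and 101 CPM in Control and 109, 176 and 190 CPM in CTCFL-OE. *CYCS*, which encodes cytochrome c, had 205, 173 and 202 CPM in Control and 203, 99.2 and 125 CPM in CTCFL-OE, where the first library lay within Control and the other 2 below it. Some genes were called when single libraries were left out. Without CTCFL-KD replicate 1, which is in neither group of this comparison but enters the shared fit, 5 genes were called higher and 3 lower, where 14% and 13.4% of all genes were. Those higher were *NDUFB9* (log2 fold change 0.74, adjusted p = 0.0182), *COX6A1* (0.64, adjusted p = 0.0437), *SDHA*, *NDUFA4L2* and *ATP5MC1*, and those lower were *SDHC*, *NDUFA6* and *NDUFC1*. Without CTCFL-OE replicate 1, *NDUFA4L2* was called higher and *CYCS* (log2 fold change -0.79, adjusted p = 0.0389), *NDUFA5* and *SDHC* were called lower, where 9.73% of all genes were called higher and 5.42% lower.

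In CTCFL-KD, 21 OXPHOS genes rose and 1 fell at an adjusted p under 0.05. Those that rose were mainly small subunits of complex IV and accessory subunits of complex I, and the one that fell was *CYCS*. The largest rises were those of *NDUFA3* (5.67-fold), *COX6A1* (5.34-fold) and *NDUFB9* (4.33-fold). Each of these was smaller without CTCFL-KD replicate 1, as given below. No subunit of complex II, none of the F1 head and no COX assembly factor passed the test.

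The 21 genes that rose were 23.3% of those tested, close to the 21.4% called higher over all genes. The single gene that fell was 1.11%, against 16.8% called lower over all genes. With a log2 fold change over 1 as well, 18 genes (20%) were DEGs that rose, where 15.3% of all genes were. Without CTCFL-KD replicate 1 only *NDUFA3*, *NDUFB9*, *COX6A1* and *NDUFA4L2* remained of these 18, while 14.8% of all genes were such DEGs. The median log2 fold change of the 90 genes was 0.58, against 0.08 over all genes. Every CTCFL-KD library lay above every Control library for 37 genes (41.1%, 28.7% over all genes) and below for 3 genes (3.33%, 27.6% over all genes), which were *NDUFS1*, *COX15* and *CYCS*. All 21 genes that rose belonged to the 37. With the other 2 CTCFL-KD libraries alone, 38 genes lay above all Control libraries and 30 below, where 38.8% and 38.4% of all genes did.

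CTCFL-KD replicate 1 was the highest of its group for 81 of the 90 genes, by a median of 1.43 on the log2 scale, while the other CTCFL-KD libraries differed from each other by a median of 0.08. Without it, the median of the 90 genes was 0.05, against 0.01 over all genes. In that fit 22 genes (24.4%) were called higher and 11 (12.2%) lower, where 26.2% of all genes were called higher and 23.7% lower. All 21 genes that rose with the 3 libraries were again called higher. The 22nd was *COX18*, an assembly factor of complex IV (log2 fold change 0.41, adjusted p = 0.0423).

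**Figure D2:**
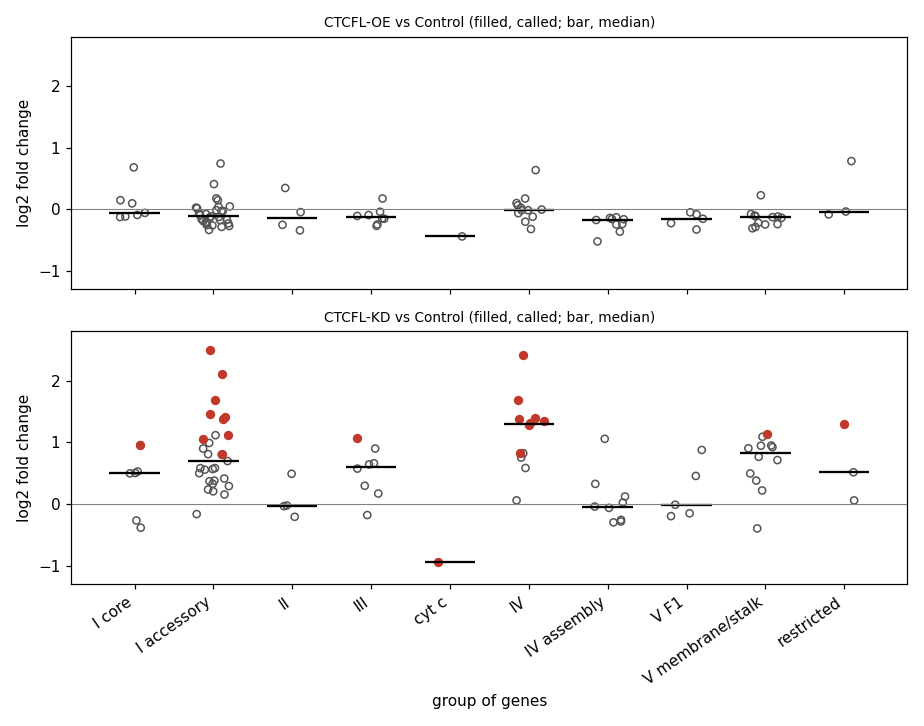
Log2 fold change (y axes) of each tested gene by group of subunits (x axis), in CTCFL-OE against Control (upper panel) and CTCFL-KD against Control (lower panel); filled points passed the test and bars are group medians. No point is filled in CTCFL-OE; in CTCFL-KD 8 of 12 complex IV subunits and 9 of 29 complex I accessory subunits are filled above 0, and *CYCS* alone is filled below 0.

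Complex I is built from a core that carries the electrons and a shell of accessory subunits. Of the 7 core subunits tested, *NDUFS7*, which holds an iron-sulfur cluster near the quinone site, rose. Its values were 15.4, 15.0 and 14.2 CPM in Control and 45.6, 20.6 and 20.6 CPM in CTCFL-KD (log2 fold change 0.96, standard error 0.28, adjusted p = 0.0213, and 0.48 without replicate 1). *NDUFV1*, the subunit that binds NADH, had 129, 126 and 129 CPM in Control and 303, 123 and 119 CPM in CTCFL-KD, with the first CTCFL-KD library above all Control libraries and the others just below them (log2 fold change 0.50, adjusted p = 0.235). *NDUFS1*, the largest core subunit, had 97.3, 107 and 105 CPM in Control and 64.6, 87.8 and 84.6 CPM in CTCFL-KD. Here the first library was the lowest, and the difference did not pass the test (log2 fold change -0.39, adjusted p = 0.109).

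Among the 29 accessory subunits tested, 9 rose and none fell, where 21.4% of all genes rose and 16.8% fell. *NDUFA3*, which lies in the membrane part of the complex, had 51.1, 47.6 and 48.0 CPM in Control. CTCFL-OE had 55.3, 53.2 and 57.2 CPM, while CTCFL-KD had 536, 151 and 146 CPM. All 3 CTCFL-KD libraries lay far above the others, and the log2 fold change was 2.50 (standard error 0.44, adjusted p = 0.00146), or 1.61 without replicate 1 (adjusted p = 1.30e-06). *NDUFB9* had 1219, 328 and 330 CPM in CTCFL-KD, above both Control and CTCFL-OE (log2 fold change 2.11, standard error 0.46, adjusted p = 0.00489, and 1.19 without replicate 1).

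*NDUFB11*, another membrane subunit, had 43.1, 41.4 and 42.2 CPM in Control and 210, 60.9 and 77.0 CPM in CTCFL-KD (log2 fold change 1.45, adjusted p = 0.0118, and 0.71 without replicate 1). *NDUFA13*, also known as GRIM-19, had 6.66, 5.67 and 6.03 CPM in Control and 40.0, 10.5 and 9.37 CPM in CTCFL-KD (log2 fold change 1.69, adjusted p = 0.0188, and 0.70 without replicate 1), with 21.0% of its exon bases shared with another gene on the same strand. The other 5 that rose were *NDUFC2* (1.41), *NDUFA2* (1.37), *NDUFB7* (1.12), *NDUFA1* (1.06) and *NDUFS4* (0.82), given as log2 fold changes. Without replicate 1 these were 0.64, 0.36, 0.32, 0.59 and 0.55. *NDUFA2* had 33.8, 31.9 and 30.8 CPM in Control and 168, 40.4 and 42.2 CPM in CTCFL-KD, so that most of its difference lay in the first library. *NDUFC2* shares 18.6% of its exon bases with other genes on the same strand, chiefly its readthrough. The 20 accessory subunits that did not pass the test had log2 fold changes from -0.16 in *NDUFA5* to 1.12 in *NDUFB8*.

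Without CTCFL-KD replicate 1, *NDUFS6* and *NDUFS5* were called lower. *NDUFS6* had 120, 104 and 108 CPM in Control and 237, 68.6 and 63.8 CPM in CTCFL-KD, so that the first library lay above all Control libraries and the other 2 below them (log2 fold change 0.15, adjusted p = 0.796, against -0.74 without replicate 1, adjusted p = 0.00146). *NDUFS5* behaved likewise, with 364, 117 and 115 CPM in CTCFL-KD and 146 to 151 CPM in Control.

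Complex II, the succinate dehydrogenase shared with the citric acid cycle, showed no call, with or without replicate 1. *SDHA*, its flavoprotein, had 21.4, 19.8 and 20.4 CPM in Control and 46.2, 21.0 and 19.8 CPM in CTCFL-KD (log2 fold change 0.49, adjusted p = 0.21). Its exons share 21.7% of their bases with another gene on the same strand, and it has pseudogenes of near-identical sequence. *SDHB*, the iron-sulfur subunit, *SDHC* and *SDHD*, the membrane anchors, had log2 fold changes of -0.02, -0.04 and -0.21.

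In complex III, 1 of 8 genes rose. *UQCRQ*, a small subunit beside the cytochrome b core, had 91.3, 89.0 and 88.3 CPM in Control and 333, 110 and 125 CPM in CTCFL-KD, all above Control (log2 fold change 1.08, standard error 0.35, adjusted p = 0.0334, and 0.39 without replicate 1). Of the large core proteins, *UQCRC1* had 750, 332 and 364 CPM in CTCFL-KD and 295 to 318 CPM in Control (log2 fold change 0.64, adjusted p = 0.0963). *UQCRC2* had 99.3, 76.3 and 72.8 CPM in CTCFL-KD and 92.4 to 94.5 CPM in Control, and was called lower only without replicate 1 (log2 fold change -0.33, adjusted p = 0.0423). *CYC1*, which carries the heme of cytochrome c1, had 180, 132 and 151 CPM in CTCFL-KD and 134, 117 and 126 CPM in Control, and the groups overlapped (adjusted p = 0.201).

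*CYCS*, the electron carrier between complexes III and IV, was the gene that fell in CTCFL-KD. It had 205, 173 and 202 CPM in Control and 97.6, 97.3 and 107 CPM in CTCFL-KD. The 3 CTCFL-KD libraries lay close together, replicate 1 included, and the log2 fold change was -0.94 (standard error 0.25, adjusted p = 0.0119), or -0.92 without replicate 1. With an offset that removes the trend of each library over transcript length and GC content, it was -0.33 and no longer called (adjusted p = 0.408), and this offset used a canonical transcript of 5432 nt where the median protein-coding transcript of the gene has 886.5 nt. With the median length in the offset instead, *CYCS* was again called lower (log2 fold change -0.58, adjusted p = 0.0456), as it was with the canonical length and without replicate 1 (-0.73, adjusted p = 0.0238).

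**Figure D3:**
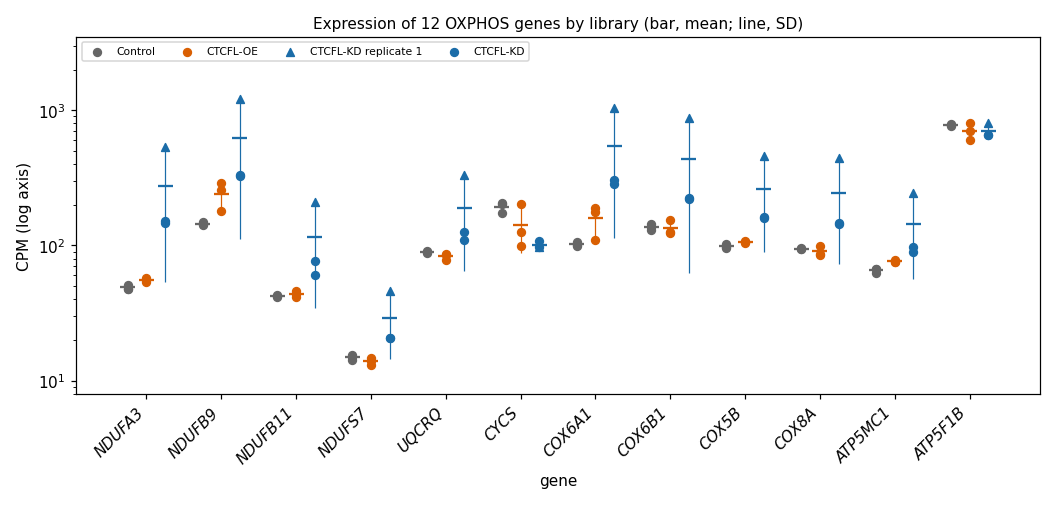
CPM (y axis, log scale) of 12 genes (x axis) in each library of Control (grey), CTCFL-OE (orange) and CTCFL-KD (blue, with replicate 1 as a triangle); bars are means and vertical lines SDs of 3 libraries. For *NDUFA3* the CTCFL-KD libraries sit between 146 and 536 CPM and the Control libraries at 51.1 CPM or less, while *CYCS* lies lower in CTCFL-KD and *ATP5F1B* overlaps between groups.

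In complex IV, 8 of 12 subunits rose, where 21.4% of all genes were called higher. This was a larger share than in the other groups of more than 1 gene, and all 12 log2 fold changes lay above 0 with a median of 1.30. Without replicate 1 the same 8 were called, where 26.2% of all genes were called higher, and the median was 0.52. *COX6A1* had 1044, 287 and 306 CPM in CTCFL-KD against 99.0 to 107 CPM in Control (log2 fold change 2.42, standard error 0.46, adjusted p = 0.00233, and 1.54 without replicate 1), with 13.1% of its exon bases in another gene on the same strand. *COX6B1*, which faces the intermembrane space near cytochrome c, had 144, 129 and 137 CPM in Control and 873, 224 and 219 CPM in CTCFL-KD (log2 fold change 1.68, adjusted p = 0.0149, and 0.70 without replicate 1). *COX5B*, a subunit on the matrix side that binds zinc, had 102, 97.9 and 95.8 CPM in Control and 457, 163 and 160 CPM in CTCFL-KD (log2 fold change 1.40, adjusted p = 0.0105, and 0.71 without replicate 1).

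The other 5 that rose in complex IV had log2 fold changes between 0.82 and 1.38. *COX8A*, the smallest subunit, had 93.8, 95.3 and 94.7 CPM in Control and 445, 144 and 148 CPM in CTCFL-KD (log2 fold change 1.38, adjusted p = 0.0151, and 0.63 without replicate 1), and 35.4% of its exon bases lie in another gene on the same strand. *NDUFA4*, once assigned to complex I and now to complex IV, had 107, 110 and 102 CPM in Control and 391, 186 and 217 CPM in CTCFL-KD, with the smallest ratio of replicate 1 to the rest among the 8 (log2 fold change 1.32, adjusted p = 0.00280, and 0.93 without replicate 1). *COX6C*, *COX4I1* and *COX7A2* had log2 fold changes of 1.34, 1.28 and 0.82, and of 0.70, 0.41 and 0.31 without replicate 1. With the replicate number as a block, *COX4I1* (adjusted p = 0.0501) and *COX7A2* (adjusted p = 0.0526) no longer passed.

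*COX5A*, *COX7A2L*, *COX7B* and *COX7C* did not pass the test. *COX5A*, the partner of *COX5B* on the matrix side, had 78.4 to 80.4 CPM in Control and 205, 78.0 and 75.0 CPM in CTCFL-KD, with the first library above all Control libraries and the others just below them (log2 fold change 0.58, adjusted p = 0.187). Of the 9 COX assembly factors, which supply heme and copper for complex IV or guide its subunits, none passed, and their median log2 fold change was -0.04. *COX14*, which helps to start the assembly of *MT-CO1*, came nearest (64.8, 19.0 and 22.6 CPM in CTCFL-KD, 16.0 to 17.8 CPM in Control, log2 fold change 1.06, adjusted p = 0.0526). *COX17*, a copper chaperone, had 124, 45.1 and 45.2 CPM in CTCFL-KD and 59.7 to 71.8 CPM in Control, and without replicate 1 both *COX17* (log2 fold change -0.53, adjusted p = 0.0304) and *COX15* (-0.33, adjusted p = 0.0425) were called lower.

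In ATP synthase the F1 head and the membrane part had different medians. None of the 5 F1 genes passed the test, with a median log2 fold change of -0.01, or -0.36 without replicate 1. *ATP5F1B* had 784, 762 and 796 CPM in Control and 804, 652 and 653 CPM in CTCFL-KD (log2 fold change -0.15, adjusted p = 0.566). *ATP5F1A*, the alpha subunit, had 366, 379 and 373 CPM in Control and 435, 273 and 266 CPM in CTCFL-KD, and was called lower without replicate 1 (log2 fold change -0.46, adjusted p = 0.0181).

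The 12 genes of the membrane part and peripheral stalk had a median log2 fold change of 0.83, or 0.08 without replicate 1. *ATP5MC1*, one of 3 genes for the c subunit of the rotor ring, was the only one that rose, with 67.2, 62.2 and 66.4 CPM in Control and 245, 97.7 and 89.4 CPM in CTCFL-KD (log2 fold change 1.14, standard error 0.33, adjusted p = 0.0192, and 0.52 without replicate 1). Its copies *ATP5MC2* and *ATP5MC3* encode the same mature protein and had log2 fold changes of 0.90 (adjusted p = 0.0894) and 0.49 (adjusted p = 0.123). *ATP5PB*, a subunit of the stalk, had 191, 192 and 198 CPM in Control and 217, 114 and 110 CPM in CTCFL-KD, with a log2 fold change of -0.40 (adjusted p = 0.26) and of -0.79 without replicate 1 (adjusted p = 0.00184). *ATP5MG* and *ATP5MK* were also called lower without replicate 1.

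Of the 3 tested isoforms and copies, *NDUFA4L2* rose. It had 1.35, 1.32 and 1.16 CPM in Control. CTCFL-OE had 1.37, 2.72 and 2.58 CPM, while CTCFL-KD had 4.15, 2.38 and 3.07 CPM (log2 fold change 1.30, standard error 0.32, adjusted p = 0.00858, and 1.09 without replicate 1). Its CTCFL-KD libraries overlapped those of CTCFL-OE. *COX7B2*, an isoform known from testis, had 17.3 to 22.4 CPM in Control and 44.6, 19.3 and 22.3 CPM in CTCFL-KD (adjusted p = 0.19). *UQCRHL*, an intronless copy of *UQCRH* whose reads can be split with it, was called lower without replicate 1 (log2 fold change -0.41, adjusted p = 0.0497).

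**Figure D4:**
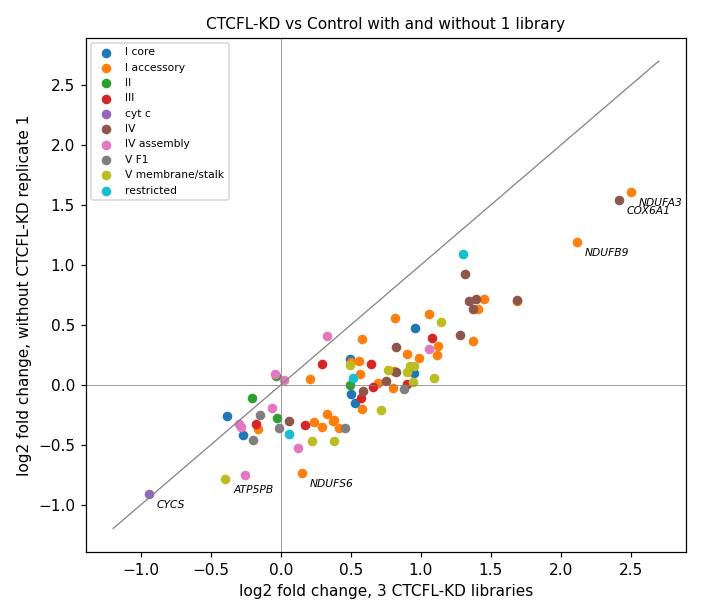
Log2 fold change in CTCFL-KD of the 90 genes with all 3 CTCFL-KD libraries (x axis) and without replicate 1 (y axis), coloured by group of subunits; the grey diagonal marks equal values. Most points lie below the diagonal, *NDUFA3*, *COX6A1* and *NDUFB9* stay above 1 on both axes, and *CYCS* stays at -0.94 and -0.92.

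CTCFL-KD and CTCFL-OE were also compared with each other. At an adjusted p under 0.05, 18 OXPHOS genes (20%) were higher in CTCFL-KD, where 15.3% of all genes were, and none was lower, where 11.5% of all genes were. The median log2 fold change was 0.67, against 0.04 over all genes. Without CTCFL-KD replicate 1 the median was 0.17, and 24 genes were higher and 3 lower, where 21% and 18.7% of all genes were. Of the 21 genes that rose against Control, 15 were also higher than in CTCFL-OE, led by *NDUFA3* (log2 fold change 2.33, adjusted p = 0.00306) and *COX6A1* (1.78, adjusted p = 0.0145). The 3 further genes were *NDUFB6*, *NDUFA8* and *COX14*. *NDUFA4L2* was not among them (log2 fold change 0.52, adjusted p = 0.232), nor was *CYCS* lower (-0.50, adjusted p = 0.15).

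Most OXPHOS transcripts are short, and CTCFL-KD replicate 1 differed from the other CTCFL-KD libraries along transcript length. In the shortest of 5 equal bins of all tested nuclear protein-coding genes, with canonical transcripts of 276 to 1846 nt, its log2 ratio to the mean of the other 2 libraries had a median of 0.84, and in the longest bin of -0.67. Of the 90 genes, 66 lay in the shortest bin. There 19 of them rose (28.8%) and none fell, with a median log2 fold change of 0.74, where 26.6% of all genes of that bin were called higher and 8.88% lower, with a median of 0.35. Without replicate 1 the medians were 0.10 for the 66 genes and -0.05 for all genes of the bin, and 19 of the 66 were called higher and 6 lower, where 24.7% and 27.0% of all genes of the bin were.

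Across the 90 genes, the log2 fold change in CTCFL-KD had a Spearman correlation of -0.45 with canonical transcript length and of 0.43 with its GC content. Without replicate 1 these were -0.20 and 0.31. The points share libraries, and the values are descriptions. With the offset for length and GC content in the fit, 36 genes were called higher and none lower, with a median of 0.54, where 26.6% of all genes were called higher and 12.8% lower. With the replicate block added 28 were called higher and none lower, where 24.5% and 12% of all genes were. With the offset and without replicate 1, 35 were called higher and 10 lower, where 26.7% and 21.5% of all genes were.

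**Figure D5:**
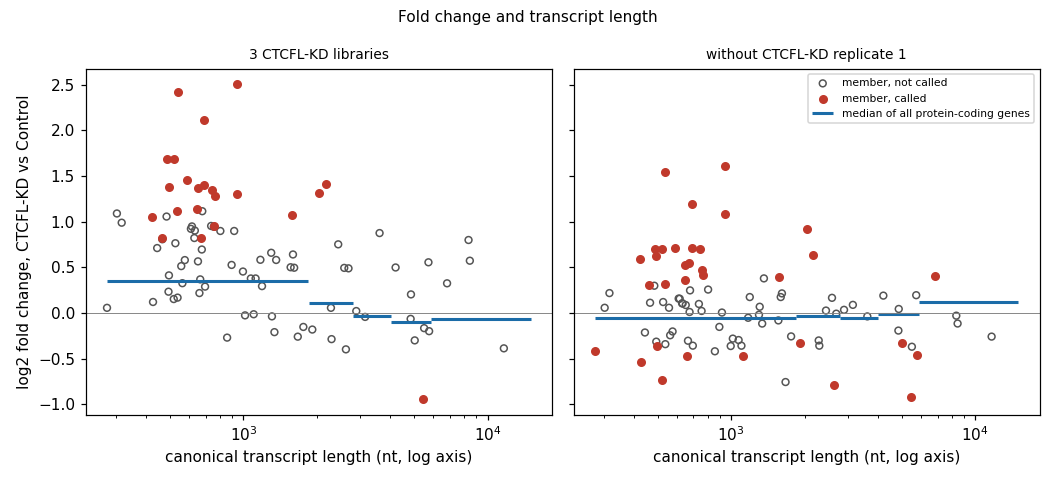
Log2 fold change in CTCFL-KD (y axis) of the 90 genes against canonical transcript length (x axis, nt, log scale), with all 3 CTCFL-KD libraries (left) and without replicate 1 (right); filled points passed the test, and blue bars are medians of all tested nuclear protein-coding genes by bin of length, the last one cut at the edge. With all libraries the blue bars step down from 0.35 in the shortest bin to -0.10 in the next to longest and lie at -0.07 in the longest. Without replicate 1 they run from -0.05 in the shortest bin to 0.12 in the longest.

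The promoters of NDUFA3 and of 3 complex IV genes that rose are shown with that of CYCS, which fell, to set the start regions of genes with opposite changes side by side. The sequences are those of RefSeq on GRCh38.p14, from 250 bases before to 50 bases after the start site, read 5′ to 3′ on the strand of the gene. Capitals mark matches on either strand to the letters GCGCANGCG for NRF1, CCGGAAG for ETS factors such as GABPA, AANATGGCG for YY1 and AGGNGGC for the core shared by CTCF and CTCFL. The windows are chr19:54102605-54102904 (+) for NDUFA3, chr12:120437863-120438162 (+) for COX6A1, chr2:97645812-97646111 (+) for COX5B, chr11:63974370-63974669 (+) for COX8A and chr7:25125211-25125510 (-) for CYCS.
NDUFA3: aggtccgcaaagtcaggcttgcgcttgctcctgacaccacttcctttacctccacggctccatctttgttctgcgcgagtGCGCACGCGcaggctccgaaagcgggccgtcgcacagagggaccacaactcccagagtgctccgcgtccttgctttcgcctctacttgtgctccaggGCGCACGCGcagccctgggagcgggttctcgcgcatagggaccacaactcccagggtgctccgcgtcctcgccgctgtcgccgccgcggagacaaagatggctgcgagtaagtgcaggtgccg
COX6A1: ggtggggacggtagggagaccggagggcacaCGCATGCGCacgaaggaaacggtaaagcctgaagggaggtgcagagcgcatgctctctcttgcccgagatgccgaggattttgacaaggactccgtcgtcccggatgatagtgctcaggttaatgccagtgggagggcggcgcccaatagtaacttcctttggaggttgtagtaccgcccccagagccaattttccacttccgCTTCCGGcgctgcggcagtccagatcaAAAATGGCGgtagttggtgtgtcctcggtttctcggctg
COX5B: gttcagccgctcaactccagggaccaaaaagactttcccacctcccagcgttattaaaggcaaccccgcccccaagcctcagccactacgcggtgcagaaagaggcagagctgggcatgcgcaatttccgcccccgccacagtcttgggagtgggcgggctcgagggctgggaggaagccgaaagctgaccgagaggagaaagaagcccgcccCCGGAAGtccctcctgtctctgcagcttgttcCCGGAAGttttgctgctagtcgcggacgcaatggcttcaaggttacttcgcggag
COX8A: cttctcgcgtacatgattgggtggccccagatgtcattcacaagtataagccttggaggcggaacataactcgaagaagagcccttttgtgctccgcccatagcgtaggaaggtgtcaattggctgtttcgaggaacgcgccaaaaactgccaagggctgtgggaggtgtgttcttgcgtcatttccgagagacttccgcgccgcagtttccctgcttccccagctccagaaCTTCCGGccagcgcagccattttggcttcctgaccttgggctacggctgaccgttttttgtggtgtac
CYCS: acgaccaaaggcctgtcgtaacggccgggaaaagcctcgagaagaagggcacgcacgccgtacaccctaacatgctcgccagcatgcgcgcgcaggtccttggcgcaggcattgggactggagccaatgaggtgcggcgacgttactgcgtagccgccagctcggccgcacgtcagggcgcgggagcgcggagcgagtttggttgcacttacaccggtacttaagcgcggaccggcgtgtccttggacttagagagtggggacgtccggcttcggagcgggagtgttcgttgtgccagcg

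*NDUFA3* held a pair of NRF1 matches, *COX6A1* 1 match each for NRF1, ETS and YY1, *COX5B* a pair of ETS matches and *COX8A* 1 ETS match. None of the 4 words occurred in the *CYCS* window, which says only that these letters are not there. Promoters were found for 78 of the 99 genes. The NRF1 word occurred in 30.8% of them, against 8.04% of all 27326 promoters of the table, the ETS word in 29.5% against 10.7%, the YY1 word in 20.5% against 3.37% and the CTCF word in 33.3% against 35.6%. Among the 16 genes that rose in CTCFL-KD and had a promoter, 3 held the NRF1 word, 9 the ETS word, 3 the YY1 word and 1 the CTCF word. These shares are descriptions, and a match is not a bound site.

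Other genes of the pathway were counted by the same test. Of 43 OXPHOS assembly factors, 6 rose and 4 fell in CTCFL-KD, with a median log2 fold change of 0.16, where 21.4% of all genes rose and 16.8% fell. Those that rose included *SURF1*, needed to build complex IV (log2 fold change 1.49, adjusted p = 0.00865, and 0.81 without replicate 1), and those that fell included *COA7* (-0.81, adjusted p = 0.00281) and *NDUFAF1*, an early factor of complex I assembly (-0.85, adjusted p = 0.00843). Without replicate 1, 8 rose and 11 fell, where 26.2% of all genes rose and 23.7% fell.

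Of 18 regulators of mitochondrial biogenesis, 8 fell and 2 rose in CTCFL-KD, with a median of -0.39, and without replicate 1 it was 8 and 3. Over all genes 16.8% fell and 21.4% rose, and 23.7% and 26.2% without replicate 1. *PPARGC1A*, the coactivator PGC-1alpha, fell (log2 fold change -1.41, adjusted p = 0.000295), as did *GABPB1* (-0.98, adjusted p = 0.000754), *TFAM*, which packages mitochondrial DNA (-0.79, adjusted p = 0.0493, and -0.50 without replicate 1), *NRF1* (-0.50, adjusted p = 0.0316) and *YY1* (-0.55, adjusted p = 0.0447). The 2 that rose in CTCFL-KD were *ESRRG* (0.98, adjusted p = 0.0462, and 1.30 without replicate 1) and *POLG2* (0.65, adjusted p = 0.0185). Without replicate 1, *PPARGC1B* was also called higher (0.88, adjusted p = 0.000359). The canonical transcripts of this list had a median length of 4201.5 nt, and the part of length in its values was not tested. In CTCFL-OE, *PPARGC1A* (0.98, adjusted p = 0.029) and *POLG2* (0.76, adjusted p = 0.0797) rose and *GABPB1* fell (-0.59, adjusted p = 0.0938).

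Among enzymes of the citric acid cycle, *SUCLA2*, a subunit of succinyl-CoA synthetase (log2 fold change -0.94, adjusted p = 0.00460), and *IDH3A*, a subunit of isocitrate dehydrogenase (-1.13, adjusted p = 0.00851), fell in CTCFL-KD. Of the 13 OXPHOS genes of the mitochondrial genome, 4 rose in CTCFL-KD (*MT-ND3*, *MT-CYB*, *MT-CO3* and *MT-CO2*) with a median of 0.69, where 21.4% of all genes rose, and without replicate 1 it was 3, without *MT-CO2*, with a median of 0.43. In CTCFL-OE none passed the test at a median of 0.93. The mitochondrial genome took 6.16% to 6.52% of the counts in Control, 7.40% to 14.9% in CTCFL-OE and 7.80% to 11.8% in CTCFL-KD, and its part in the scaled values of nuclear genes was not tested.

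Ribosomal proteins are also encoded by short transcripts. The list for the cytosolic ribosome was taken by symbol, and so also holds *RPS19BP1*, which is not itself a ribosomal protein. Of its 85 tested genes, 5 rose and none fell in CTCFL-KD, with a median of 0.44, and without replicate 1, 4 rose and 20 fell, with a median of -0.22. Of 77 tested mitochondrial ribosomal proteins, 3 rose and 8 fell, with a median of 0.15, and without replicate 1, 4 rose and 41 fell, with a median of -0.35. Over all genes 21.4% rose and 16.8% fell, and 26.2% and 23.7% without replicate 1. The corresponding values of the 90 OXPHOS genes were 21 and 1 with a median of 0.58, and 22 and 11 with a median of 0.05. The differences between these lists were not tested.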

How the data were processed

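RNA-seq libraries (TruSeq Stranded mRNA, paired-end) of 9 OVCAR3 samples were analysed as raw gene counts deposited by the authors, 1 matrix of 60660 rows, to which the 9 files of single libraries were equal. According to the methods, the authors used Trimmomatic for trimming, STAR for alignment to GRCh38 and featureCounts of Rsubread for the counts. The submitters' processing notes name Trimmomatic, kallisto and featureCounts. Which annotation release was used, whether strand was counted and how reads on several genes were handled is not given in the sources used here. Groups came from the sample labels, and no column belonged to another sample (0 columns).

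Gene names, biotypes, canonical transcripts, lengths and exon overlaps were taken from GENCODE 44. Genes were filtered with filterByExpr, scaled by TMM and tested in 1 fit of all 9 libraries with edgeR 4.0.16 (quasi-likelihood, robust) in R 4.3.3. Benjamini-Hochberg adjustment ran over all 17794 genes tested, and every adjusted p in the text is from this test unless another is named. Genes were called at an adjusted p under 0.1 in CTCFL-OE and under 0.05 in CTCFL-KD and between the 2 altered conditions, and DEGs also had a log2 fold change beyond 1 in size. Standard errors were the fold change divided by the root of the F statistic. On simulated counts of 17794 genes, the test recovered 96% of genes changed by 1 on the log2 scale and 100% of those changed by 2 for CTCFL-KD, and 99% and 100% for CTCFL-OE. The simulation holds no library that stands apart, and its median error of 0.104 for a change of 1 in CTCFL-KD lies below the standard errors of the OXPHOS genes there (0.14 to 0.49), so these shares do not give the power for those genes. The totals of 14332622 to 24490080 counts put 3 counts at 0.122 to 0.209 CPM of the raw totals.

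The labels number the replicates alike in each group. Deviations from the group means over 11441 genes correlated between same-numbered Control and CTCFL-KD libraries at 0.387, 0.218 and 0.275. With trends of length and GC content removed these were 0.149, 0.153 and 0.133. For Control and CTCFL-OE the correlations were -0.042, 0.232 and -0.047. With trends removed, Control replicate 3 and CTCFL-OE replicate 1, of unlike number, reached 0.166. Correlations of this size cannot show which libraries belong together, and no label ties the numbers to a shared batch. No pairing was therefore taken from them, and the main fit held no replicate block. The block was run as an alternative, and its value is given where it changes a call. The labels call the biological replicates of a condition independent.

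The genes, lists and tests were chosen with earlier results of these data known. Named genes were, in CTCFL-OE and CTCFL-KD, the 3 of each group with the lowest p, every DEG, every restricted isoform or copy, every gene under the filter, the main catalytic or electron-carrying subunits and the 5 highest per length in Control, of which some are given only within counts and ranges. The other genes named, such as those called only without a library and those of the further lists, were chosen after their values were seen. Alternatives were RLE scaling, DESeq2 1.42.0, no filter on low counts, 10 counts in every library, fits of 2 groups, the replicate block, an offset for length and GC content, and each library left out. Scripts used Python 3.11.15 with pandas 2.3.3, numpy 2.4.6 and matplotlib 3.10.9. Part of the result on citric acid cycle enzymes is not reported here.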

Additional observations from a re-analysis of the deposited data

How the results depend on the processing

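In CTCFL-OE, where no gene was called, the number called higher was 1 with no filter on low counts, 4 in a fit of CTCFL-OE and Control only and 0 to 5 with single libraries left out, and the number lower was 0 to 3 with single libraries left out. In CTCFL-KD, where 21 were higher and 1 lower, the number higher was 39 with no filter, 10 in the fit of those 2 groups and 36 with the length and GC offset. With single libraries left out it ran from 8 to 39, at 9, 10 and 8 without Control replicates 1, 2 and 3 and at 39 and 37 without CTCFL-KD replicates 2 and 3. The number lower ran from 1 to 11 in those fits and was 0 with the offset, with or without the replicate block. Between CTCFL-KD and CTCFL-OE, 18 were higher, against 31 by DESeq2, 42 with no filter and 6 in the fit of 2 groups. With single libraries left out this ran from 5 to 39, at 7, 5 and 7 without CTCFL-OE replicates 1, 2 and 3 and at 38 and 39 without CTCFL-KD replicates 2 and 3, and the number lower ran from 0 to 3. The replicate block gave 19 higher and 1 lower in CTCFL-KD, losing *COX4I1* and *COX7A2*, 18 higher between CTCFL-KD and CTCFL-OE, and none in CTCFL-OE. The next 3 settings were added after seeing the data. The offset without CTCFL-KD replicate 1 gave 6 higher and 1 lower in CTCFL-OE, 35 and 10 in CTCFL-KD, and 28 and 5 between the altered conditions. The offset by median transcript length gave 32 higher and 1 lower in CTCFL-KD, and 22 and 1 with the replicate block. Without CTCFL-KD replicate 1, 26 of the 90 log2 fold changes in CTCFL-KD changed sign, 24 of them to below 0, and 6 of the 26 were called there, while 16 changed sign with the length and GC offset. Among the genes whose new sign was called were *ATP5MG* (-0.47), *NDUFS5* (-0.36) and *UQCRHL* (-0.41) without CTCFL-KD replicate 1 (highest with another library left out, 0.68, 0.68 and 0.25), *ATP5F1D* (-0.44), *NDUFS5* (-0.29) and *UQCRHL* (-0.39) with the offset and without that library, and *COX11*, which was 0.55 with the offset, with and without the block, 0.47 with the offset and without replicate 1, 0.54 with the offset by median length and 0.53 with the block added. The 7 genes *NDUFA3*, *NDUFB9*, *NDUFB11*, *COX6A1*, *COX5B*, *NDUFA4* and *NDUFA4L2* were called higher in CTCFL-KD in all 17 settings other than these 3. The cause of these changes was not tested. With 3 libraries a group and 1 that stood apart, smaller differences may be missed at this depth.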
